A study of Homo sapiens with 19 samples.

Results

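The genes described here encode 10 proteoglycan core proteins, taken by symbol from all 3 expression tables: the small leucine-rich proteoglycans DCN (decorin), LUM (lumican) and BGN (biglycan), the large matrix proteoglycan VCAN (versican), the 4 syndecans SDC1, SDC2, SDC3 and SDC4, the glypican GPC1 and SRGN (serglycin). They stand among 30710 genes listed in any table, and each of the 10 was listed in at least 1 table. The culture table listed 9 of them (BGN was not listed) and 8 passed the filter of a mean normalized count of at least 10. The siSCIRT table listed 10, of which 9 passed, and the siEZH2 table listed 10, of which 7 passed.

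RNA-seq was done on MDA-MB-231, a triple-negative human breast cancer line of mesenchymal character, with 19 libraries in all and no genetic change stated for any group. Spheres were grown in suspension for 16 h or for 5 d (n = 2 each) in DMEM/F12 with B27, 20 ng/ml EGF and 20 ng/ml FGF, and were set against adherent cells in DMEM with 10% FCS (n = 2). Medium, serum, growth factors and attachment changed together between these groups, so their parts in a difference cannot be told apart. For the knockdowns, cells took up siRNA by reverse transfection and then spent 48 h in this sphere medium: siSCIRT 1, siSCIRT 2 and their control siRNA, siNC (n = 3 each), and siEZH2 and its own siNC (n = 2 each). SCIRT is a long non-coding RNA, and EZH2 is the methyltransferase of Polycomb repressive complex 2. No untransfected spheres of 48 h are among these groups.

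A proteoglycan is a core protein that carries long sulfated sugar chains, of heparan sulfate, chondroitin sulfate or dermatan sulfate. Syndecans span the membrane and glypicans are tied to its outer face by a lipid anchor, and their heparan sulfate binds growth factors such as FGF and hands them to receptors. Decorin, biglycan and lumican are secreted, bind collagen fibrils and shape the matrix, and are made in tissue mainly by fibroblasts. Serglycin is packed in secretory granules and vesicles and is known mainly from blood cells, and it is also made by aggressive breast cancer cells.

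Recovered reads came to 6104222 to 14781941 per library for culture, 38635418 to 62218847 for siSCIRT and 27989577 to 38955312 for siEZH2. The labels held: SCIRT, listed as RP5-1120P11.1, fell by 1.16 ± 0.16 on the log2 scale (SE; limma, adjusted p = 0.000325) after siSCIRT 1 and by 1.10 ± 0.16 (adjusted p = 0.000659) after siSCIRT 2, and EZH2 fell by 0.92 ± 0.15 (adjusted p = 6.28e-08) after siEZH2. EZH2 also fell after siSCIRT 1, by 0.53 ± 0.08 (limma, adjusted p = 0.000555), and after siSCIRT 2, by 0.50 ± 0.08 (adjusted p = 0.00101). SCIRT was not called after siEZH2 (-0.37 ± 0.18, adjusted p = 0.239). All 5 markers listed for the line as present were expressed in every culture library. The mitochondrial share of reads was 8.55% to 8.56% in 16 h spheres, 9.65% to 9.74% in 5 d spheres and 6.83% to 6.89% in adherent cells, and its part in the results was not tested.

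At 16 h, decorin rose out of near absence, SDC4 and SRGN rose and GPC1 rose modestly, while SDC1, SDC2 and SDC3 fell. At 5 d, decorin was at 12 reads over both libraries, SDC4 and SRGN stood between their 16 h and adherent levels, SDC3 was above its adherent level, and lumican and SDC1 reached their lowest levels of the 3 groups. In 16 h spheres against adherent cells, 4 of the 8 tested members were higher, 3 were lower and 1 was not called, where a call is an adjusted p under 0.05 (limma, Benjamini-Hochberg over all genes tested). Over all 13789 genes tested the background was 53.9%, with 27.4% of genes higher and 26.5% lower. In 5 d spheres against adherent cells, 5 of 8 were higher and 3 lower, against a background of 55.2% (26.3% higher, 28.9% lower). In 5 d against 16 h spheres, 1 of 8 was higher, 5 were lower and 2 were not called, against a background of 48.3% (22.8% higher, 25.5% lower). DCN passed the filter only through its 16 h libraries, so it had to differ in each comparison with 16 h spheres: it is among the members higher at 16 h than in adherent cells and among those lower at 5 d than at 16 h, and is given there as a description. DCN is also among the 5 members higher at 5 d than in adherent cells. Its mean normalized counts there, 7.22 at 5 d and 0.304 in adherent cells, were both below the filter. They came from 12 reads and 1 read, so that call too is given as a description. Each share rests on 8 genes in a table where about every second gene was called. The first 2 comparisons share the adherent libraries.

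**Figure D1:**
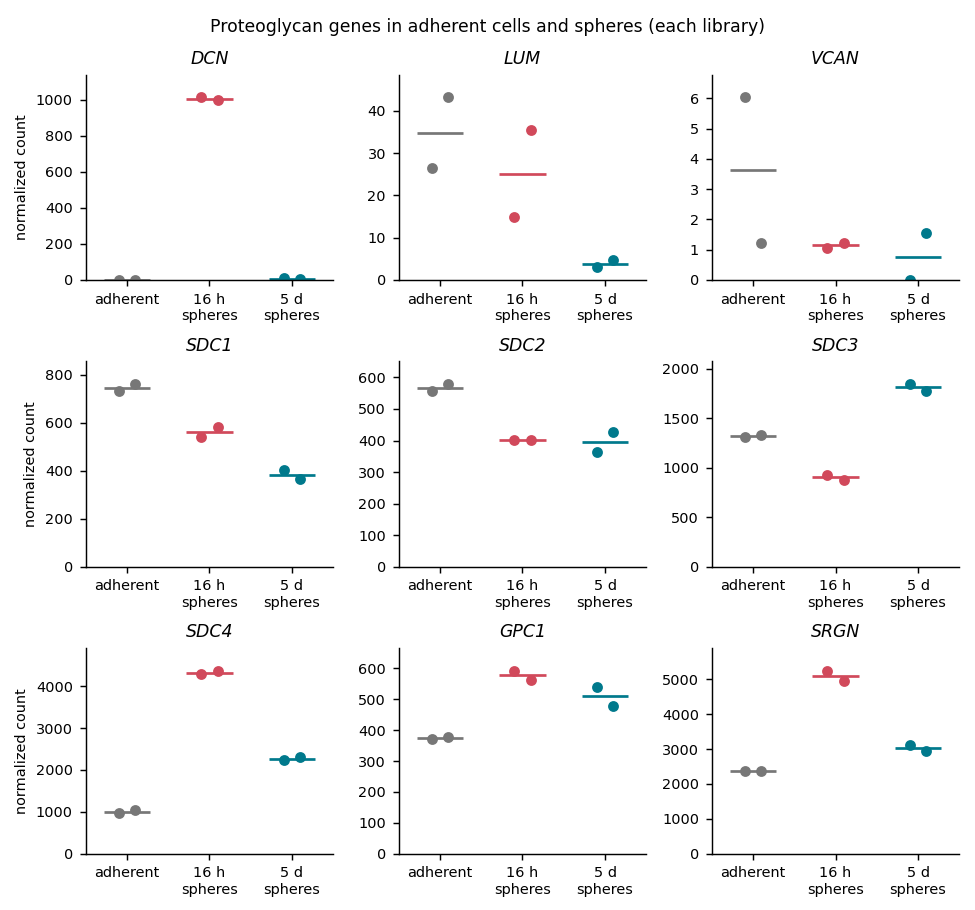
Normalized counts (vertical axes, from 0, each gene on its own scale) of the 9 listed proteoglycan genes in adherent cells, 16 h spheres and 5 d spheres. Points are libraries and lines are group means (n = 2 each). DCN stands at 1014 and 999 in the 16 h libraries and under 10 in the others, SDC4 and SRGN peak at 16 h, SDC3 dips at 16 h and SDC1 steps down.

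Decorin, which binds collagen and several growth factor receptors, had normalized counts of 0 and 0.609 for adherent cells, 1014 and 999 for the 16 h libraries, and 8.28 and 6.16 for those of 5 d. The 16 h libraries thus stood far above all others and the 5 d libraries slightly above the adherent ones, with no overlap. Behind these values were 1769 reads at 16 h, 12 reads at 5 d and 1 read in adherent cells. The adherent library with 0 reads allows up to 3 reads, a normalized count of 2.26. The ratio of 16 h spheres to adherent cells was 2988, with a 95% counting interval of 536 to 118086. For 5 d spheres over adherent cells it was 22.0 (3.26 to 943), and for 16 h over 5 d spheres it was 136 (77.4 to 263). These exact intervals cover counting error only, and with 1 read in the lower group they bound the size of the rise only widely.

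DCN is a usual fibroblast marker, so 12 stromal markers were read beside it. Of these, 8 were listed in the culture table and their summed level was 1834 to 1843 in 16 h spheres, 1245 to 1367 in 5 d spheres and 328 to 337 in adherent cells. Of the 5 that passed the filter, 3 were higher at 16 h than in adherent cells (COL5A1, FBLN1 and COL1A1) and PDGFRB was lower. COL5A1, a fibrillar collagen chain, made up most of the sum, with a mean of 1583 at 16 h and 204 in adherent cells. In reads over the 2 libraries, at 16 h, 5 d and in adherent cells in that order, COL5A1 had 2782, 1698 and 607, FBLN1 209, 170 and 98, and COL1A1 106, 72 and 38. ACTA2 had 72, 51 and 77 reads in this order and PDGFRB 45, 99 and 164. COL1A2 had 3, 0 and 3, PDGFRA 3, 0 and 1, and FAP 11, 0 and 0, so FAP, like DCN, was highest at 16 h. COL3A1, THY1, POSTN and MFAP5 were not listed. Of 4 endothelial markers 2 were listed, with a summed level of 302 to 385 at 16 h, 206 to 301 at 5 d and 180 to 186 in adherent cells, and KDR, the VEGF receptor that made up nearly all of it, was higher at 16 h (0.90; limma, adjusted p = 4.17e-06). The part of other cells in the DCN level was not tested, and in bulk RNA a few cells with much DCN and many cells with little cannot be told apart.

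Lumican, a collagen-binding relative of decorin whose gene lies next to DCN on chromosome 12, did not share its peak. Its normalized counts were 26.4 and 43.2 for adherent cells, 14.9 and 35.4 for the 16 h libraries, and 3.11 and 4.62 for those of 5 d. The 16 h range overlapped the adherent one, and both 5 d libraries lay below all others. LUM fell by 2.86 ± 0.51 (log2, SE; limma, adjusted p = 9.22e-06) at 5 d against adherent cells, on 6 reads against 106. For 16 h against adherent cells the difference was -0.53 ± 0.51 (adjusted p = 0.394), with a 95% interval of -1.56 to 0.49. BTG1, the gene on the other side of DCN and an antiproliferative factor, averaged 2881 at 16 h, 1320 at 5 d and 1200 in adherent cells. KERA and EPYC, the proteoglycan genes beyond LUM in this cluster, were looked up and were not listed for culture, siSCIRT or siEZH2.

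Versican, the large chondroitin sulfate core that binds hyaluronan, was close to absent in culture. It had 10 reads over the adherent libraries, 2 over the 16 h libraries and 1 over the 5 d libraries, below the filter. The ratio of 16 h spheres to adherent cells was 0.338 with a counting interval of 0.0360 to 1.59, so no difference was detectable at this depth.

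The syndecans moved apart. SDC4, which works with integrins at focal adhesions and binds fibronectin, had normalized counts of 961 and 1043 for adherent cells, 4282 and 4361 for the 16 h libraries, and 2227 and 2303 for those of 5 d. The 3 groups did not overlap, and 16 h was highest. SDC4 rose by 2.11 ± 0.05 on the log2 scale (SE; limma, adjusted p = 4.86e-31), or 4.31-fold, at 16 h, and by 1.18 ± 0.05 (adjusted p = 1.31e-22) at 5 d, both against adherent cells. The 5 d minus 16 h difference was -0.93 (adjusted p = 2.19e-19).

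SDC1, the main epithelial syndecan, had 730.5 and 759.8 for adherent cells, 538 and 583 for the 16 h libraries, and 403 and 365 for those of 5 d. These ranges step down without overlap. Against adherent cells it fell by 0.41 ± 0.09 (log2; limma, adjusted p = 0.000131) at 16 h and by 0.96 ± 0.09 (adjusted p = 7.9e-12) at 5 d, and the further step between 16 h and 5 d was -0.55 (adjusted p = 2.59e-06). Of 4 markers that are low in this line, 3 were listed (EPCAM, CDH1 and ESR1), with a summed level of 24.4 to 25.6 at 16 h, 82.8 to 102 at 5 d and 112 to 113 in adherent cells. The epithelial marker EPCAM, the one that passed the filter, was lower at 16 h (-1.87; limma, adjusted p = 9.69e-08) and not called at 5 d (-0.08, adjusted p = 0.819), and E-cadherin, CDH1, averaged 0.61 at 16 h, 4.62 at 5 d and 19.7 in adherent cells. Their part in the SDC1 result was not tested. SDC2, a syndecan of mesenchymal cells, had 557 and 578 for adherent cells, 403 and 403 for the 16 h libraries, and 363 and 427 for those of 5 d. Both sphere groups lay below adherent cells and overlapped each other. SDC2 fell by 0.49 ± 0.10 (adjusted p = 4.48e-05) at 16 h and by 0.53 ± 0.10 (adjusted p = 1.75e-05) at 5 d, and the interval of the 5 d minus 16 h difference was -0.23 to 0.16.

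SDC3, the syndecan best known from the nervous system, was the member whose direction turned. It had 1316 and 1331 for adherent cells, 931 and 878 for the 16 h libraries, and 1845 and 1781 for those of 5 d. The 16 h libraries lay below and the 5 d libraries above the adherent ones. SDC3 fell by 0.55 ± 0.06 (log2; limma, adjusted p = 1.33e-10) at 16 h and rose by 0.45 ± 0.06 (adjusted p = 1.36e-08) at 5 d. The 5 d minus 16 h difference was 1.00 ± 0.06 (adjusted p = 1.25e-17), or 2.00-fold. SDC3 and SDC4 thus moved in opposite directions at 16 h against adherent cells and again between 16 h and 5 d.

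The ratio of SDC4 to SDC1, each per kilobase of its principal transcript, was 1.66 and 1.73 for adherent cells, 10.0 and 9.43 for the 16 h libraries, and 6.96 and 7.94 for those of 5 d. All 4 sphere libraries stood above both adherent libraries. With the length of all exons joined it was 1.81 and 1.89 for adherent cells, 10.9 and 10.3 for the 16 h libraries, and 7.61 and 8.68 for those of 5 d.

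The promoter windows of 3 syndecans are printed because these genes took different courses in culture, SDC4 upward at both times, SDC3 downward and then upward, and SDC1 downward. Each runs from 250 bases before to 50 bases after the start site on the gene's strand, from RefSeq on GRCh38.p14, and capitals mark GGGCGG or its reverse complement, the letters of the GC box that Sp1 binds. The windows are SDC4 at chr20:45348375-45348674, SDC3 at chr1:30908709-30909008 and SDC1 at chr2:20225426-20225725, all on the minus strand.
SDC4: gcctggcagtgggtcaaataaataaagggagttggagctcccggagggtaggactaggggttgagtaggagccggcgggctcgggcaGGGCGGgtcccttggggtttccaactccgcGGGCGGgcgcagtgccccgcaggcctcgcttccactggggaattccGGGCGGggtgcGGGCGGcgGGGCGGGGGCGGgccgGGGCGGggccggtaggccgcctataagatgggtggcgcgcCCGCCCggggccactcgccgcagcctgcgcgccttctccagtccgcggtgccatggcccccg
SDC3: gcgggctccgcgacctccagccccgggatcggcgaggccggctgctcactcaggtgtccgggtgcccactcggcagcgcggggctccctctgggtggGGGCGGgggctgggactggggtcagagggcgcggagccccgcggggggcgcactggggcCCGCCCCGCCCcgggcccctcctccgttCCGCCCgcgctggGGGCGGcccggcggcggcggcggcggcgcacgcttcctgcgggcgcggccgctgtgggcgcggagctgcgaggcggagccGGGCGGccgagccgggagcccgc
SDC1: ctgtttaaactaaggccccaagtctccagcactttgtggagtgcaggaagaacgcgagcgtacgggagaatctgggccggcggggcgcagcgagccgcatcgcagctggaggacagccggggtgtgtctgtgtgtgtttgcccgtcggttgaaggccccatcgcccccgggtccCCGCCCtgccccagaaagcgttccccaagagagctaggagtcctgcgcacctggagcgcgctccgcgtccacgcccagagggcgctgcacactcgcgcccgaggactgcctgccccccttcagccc
The SDC4 window held 8 matches (overlapping ones included), the SDC3 window 6 and the SDC1 window 1, and 45.0% of 35116 promoter windows held at least 1. G and C made up 74.0% of the SDC4 window, 84.0% of that of SDC3 and 67.7% of that of SDC1. Promoter windows were found for 6 of the 10 members, with 7 start sites. None of the 7 windows held TATAAA (in 11.5% of all windows), ACGTG, the core of the hypoxia response element (21.4%), or TGANTCA, the AP-1 site (7.71%), on either strand. These are letter matches, not binding sites.

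GPC1, the heparan sulfate glypican that takes up FGF signals, had 372 and 377 for adherent cells, 592 and 564 for the 16 h libraries, and 541 and 478 for those of 5 d. Both sphere groups lay above adherent cells, with 16 h above 5 d. GPC1 rose by 0.62 ± 0.09 (log2; limma, adjusted p = 4.1e-07) at 16 h and by 0.44 ± 0.09 (adjusted p = 0.000115) at 5 d, while the 5 d minus 16 h difference was -0.18 (adjusted p = 0.101; 95% interval -0.37 to 0.00) and was called without 5 d replicate 1 (-0.27, adjusted p = 0.0336).

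Serglycin had 2366 and 2377 for adherent cells, 5236 and 4946 for the 16 h libraries, and 3111 and 2950.2 for those of 5 d. The 3 groups did not overlap. SRGN rose by 1.10 ± 0.04 (log2; limma, adjusted p = 1.18e-24) at 16 h, or 2.15-fold, and by 0.35 ± 0.04 (adjusted p = 4.22e-10) at 5 d, and the 5 d minus 16 h difference was -0.75 (adjusted p = 4.27e-19). Because SRGN is a blood cell gene, 8 blood markers were read beside it. Only 3 of the 8 were listed, with a summed level of 25.6 to 45.2 at 16 h, 26.9 to 27.7 at 5 d and 23.7 to 29.4 in adherent cells. In reads at 16 h, 5 d and in adherent cells in that order, CD14 had 59, 34 and 41, PTPRC 0, 8 and 36, and LYZ 2, 2 and 1. CD14, the only one that passed the filter, was called higher at 16 h, while PTPRC was lowest there. The part of blood cells in the SRGN level was not tested.

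Per kilobase of principal transcript, SRGN was the highest of the 9 listed members in every culture group, with a mean of 4214 in 16 h spheres, 2509 in 5 d spheres and 1963 in adherent cells. SDC4 came second at 16 h with 1654, above SDC3 with 572. In adherent cells the order after SRGN was SDC3 (838), SDC4 (384), SDC1 (226), SDC2 (151), GPC1 (101) and LUM (11.6), with no overlap between neighbours. At 5 d SDC3 (1147) was again above SDC4 (867), and SDC1 overlapped SDC2, as LUM did DCN. DCN ranked last in adherent cells and 6 of 9 at 16 h. The order depends on the length used. The principal transcript of SDC3 has 1580 bases and its joined exons 7067, and with joined exons SDC3 was below SDC4 in all 3 groups and below SDC1 at 16 h and in adherent cells. With joined exons DCN ranked 7 of 9 at 16 h, at 78.3 against 88.8 for SDC2, and GPC1 was below SDC2 at 16 h and below SDC1 and SDC2 at 5 d. Lengths came from GENCODE 29 and not from the authors' annotation.

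For each of the 8 tested members, the gene with the most similar course over the 6 culture libraries was found as the smallest Euclidean distance between centred log2 values among 8756 candidates. These were LBP for DCN (distance 1.45), KMO for LUM (1.44), HS6ST1 for SDC1 (0.123), AMPD2 for SDC2 (0.0779), SLC9A3R1 for SDC3 (0.116), GPR153 for SDC4 (0.120), OFD1 for GPC1 (0.0828) and PLOD2 for SRGN (0.0885). LBP, a lipopolysaccharide-binding protein, averaged 858 in 16 h spheres, 7.73 in 5 d spheres and 1.06 in adherent cells. It was picked for its likeness to DCN over these same 6 libraries. Its height in the 16 h libraries alone thus follows from the choice and is a description. HS6ST1, the gene closest to SDC1 in course, is a sulfotransferase of heparan sulfate.

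After siSCIRT the members changed little. Neither siSCIRT 1 nor siSCIRT 2 alone gave a call in any of the 9 tested members (limma), against a background among 16607 genes of 10.2% for siSCIRT 1 (4.63% higher, 5.56% lower) and 9.54% for siSCIRT 2 (4.49% higher, 5.05% lower). At an unadjusted p under 0.05 (limma) there were 2 of 9 members for each siRNA. Over all 16607 genes there were 3969 for siSCIRT 1 and 3922 for siSCIRT 2 at this threshold. Among the other tools DESeq2 called 1 member for siSCIRT 1 (SDC1) and edgeR 0 for either. These calls depend on the model. With a replicate block in the limma fit, SDC1, GPC1 and SRGN were called for siSCIRT 1 and SDC1 and SRGN for siSCIRT 2. All-gene calls with the block were 3144 and 3110. The mean of both siRNAs against siNC gave 1 call of 9, SDC1 higher, against a background of 14.4% (6.82% higher, 7.58% lower). Between siSCIRT 1 and siSCIRT 2 no gene of 16607 was called by limma or edgeR (0%), with 451 at an unadjusted p under 0.05 and 6 called by DESeq2.

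SDC1 had normalized counts of 4553, 4250.3 and 3945 after siSCIRT 1 and 4340.4, 4023 and 3989 after siSCIRT 2, against 3884, 3323 and 3591 in siNC spheres. All 6 knockdown libraries lay above all 3 controls, by a small margin. SDC1 rose by 0.22 ± 0.07 on the log2 scale for the mean of both siRNAs (SE; limma, adjusted p = 0.0354), or 1.16-fold. The call depended on single libraries: it was lost in 6 of 9 fits that left out 1 library (adjusted p 0.0301 to 0.135) and without the variance trend (adjusted p = 0.111). The libraries whose omission ended it were siSCIRT 1 replicates 1 and 2, siSCIRT 2 replicates 1 and 3 and siNC replicates 2 and 3. For siSCIRT 1 alone SDC1 was called with quantile normalization (adjusted p = 0.0271), by DESeq2 (adjusted p = 0.0243) and without siNC replicate 1 (adjusted p = 0.043). With the replicate block SDC1 was called for siSCIRT 1 (limma, adjusted p = 0.00393), for siSCIRT 2 (adjusted p = 0.0172) and for their mean. The summed stromal markers were also higher, at 19164 to 20736 after siSCIRT 1 and 19362 to 21532 after siSCIRT 2, against 13429 to 15509 in siNC spheres. Of the 8 stromal markers tested for the siSCIRT mean, 2 were called higher and 6 were not called (limma), beside 6.82% of all genes higher. The 4 markers low in the line summed to 398 to 495 after siSCIRT 1 and 447 to 490 after siSCIRT 2, against 499 to 536 in siNC spheres, and the 1 tested was not called (-0.17). Of 8 blood markers 4 were listed, with a summed level of 989 to 1063 after siSCIRT 1 and 851 to 955 after siSCIRT 2. In siNC spheres it was 734 to 880. Of the 3 blood markers tested for the siSCIRT mean, 1 was called higher and 2 were not called (limma). The mitochondrial share was 5.54% to 6.11% over the knockdown libraries and 6.11% to 6.60% over the siNC libraries. The part of these in the SDC1 result was not tested.

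The other members were not called for the siSCIRT mean in the main fit, which has no replicate block. Serglycin had 12257, 10627 and 10104 after siSCIRT 1 and 11699, 10471 and 10062 after siSCIRT 2, against 12514, 11868 and 12549 in siNC spheres. A single knockdown library lay within the siNC range, and the difference was -0.18 ± 0.07 (adjusted p = 0.0884). SRGN was called without siSCIRT 1 replicate 1 (-0.22, adjusted p = 0.0205) and without siSCIRT 2 replicate 1 (-0.21, adjusted p = 0.0437), and for siSCIRT 1 alone without its replicate 1 (-0.25, adjusted p = 0.0494). With the replicate block SRGN was called lower for siSCIRT 1 (limma, adjusted p = 0.0361), siSCIRT 2 (adjusted p = 0.0137) and their mean (adjusted p = 0.00678). SDC4 had a difference of -0.08 with a 95% interval of -0.21 to 0.06, SDC3 of 0.10 (-0.01 to 0.21), SDC2 of 0.03 (-0.11 to 0.18) and GPC1 of -0.13 (-0.27 to 0.02). Decorin had 36.4, 25.1 and 26.0 after siSCIRT 1 and 19.8, 20.1 and 24.3 after siSCIRT 2, against 22.6, 8.27 and 29.5 in siNC spheres, so each knockdown group overlapped the controls. The intervals of DCN, LUM and VCAN were wide, from -0.28 to 1.19 for DCN, from -0.31 to 0.77 for LUM and from -1.12 to 0.28 for VCAN. BGN had between 0 and 6 reads per library.

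**Figure D2:**
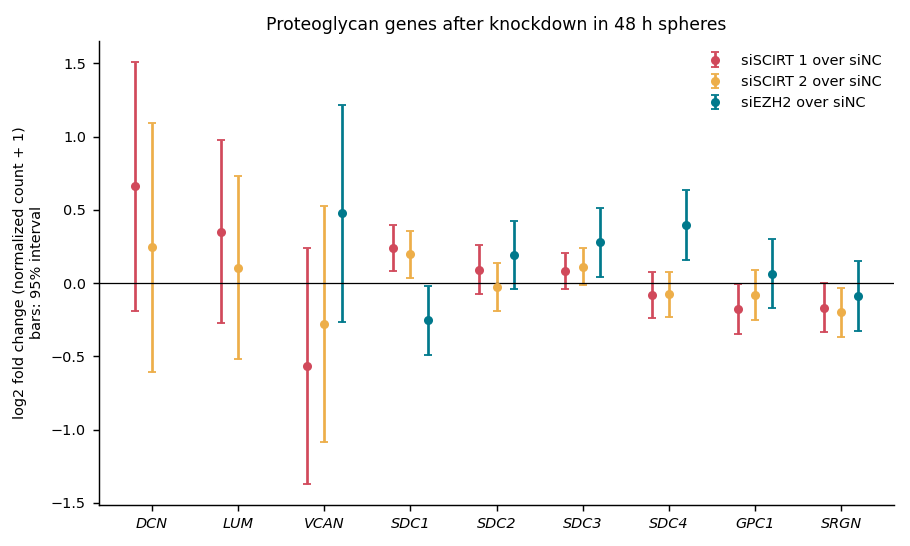
Log2 fold changes over siNC (vertical axis, log2 of normalized count + 1) of the tested proteoglycan genes after siSCIRT 1, siSCIRT 2 and siEZH2. Points are fitted values and bars are 95% intervals (n = 3 a group for siSCIRT, 2 for siEZH2). SDC1 is above 0 for both siSCIRT and below 0 for siEZH2, and SDC4 is highest for siEZH2; DCN, LUM and VCAN have the widest bars.

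After siEZH2, 1 of the 7 tested members was called, SDC4 higher, against a background of 6.84% of 15823 genes (3.9% higher, 2.94% lower; limma). SDC4 had normalized counts of 14954 and 14297 after siEZH2, against 9623 and 12827 in siNC spheres. Both knockdown libraries lay above both controls, and the controls differed from each other more than the knockdown libraries did. SDC4 rose by 0.40 ± 0.12 on the log2 scale (SE; limma, adjusted p = 0.0246), or 1.32-fold. The call ended without siEZH2 replicate 1 (adjusted p = 0.152), without siEZH2 replicate 2 (adjusted p = 0.0733) and without siNC replicate 1, where the rise was 0.19 (adjusted p = 0.691). Nor was SDC4 called by DESeq2 (adjusted p = 0.0929) or without the variance trend (adjusted p = 0.33). The summed stromal markers were 16165 to 19580 after siEZH2 against 14181 to 15266 in siNC spheres, and none of the 7 tested was called (limma). The 3 listed endothelial markers of 4 summed to 199 to 206 after siEZH2 against 261 to 266 in siNC spheres, and neither of those tested, KDR and VWF, was called. Of 8 blood markers 5 were listed, with a summed level of 268 to 288 after siEZH2 against 240 to 292 in siNC spheres. Both of the 2 tested were called, 1 higher and 1 lower (limma). The part of these markers was not tested.

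SDC1 went the other way, with 1897 and 2004 after siEZH2 against 2239 and 2411 in siNC spheres. The groups did not overlap, but the difference of -0.25 ± 0.12 was not called (adjusted p = 0.22). SDC3 had 7929.9 and 8870.3 after siEZH2 against 6784 and 7058 in siNC spheres, also without overlap and not called (0.28 ± 0.12, adjusted p = 0.161). SDC2 had 2780 and 2491 after siEZH2 against 2418 and 2195 in siNC spheres, again without overlap and not called (0.19, 95% interval -0.04 to 0.43). The share of all genes whose groups did not overlap was not counted. GPC1 had a difference of 0.06 (-0.17 to 0.30), SRGN of -0.09 (-0.33 to 0.15) and VCAN of 0.48 (-0.27 to 1.22). Decorin had 1 read over the siEZH2 libraries against 6 over the siNC libraries, a ratio of 0.186 with a counting interval of 0.00405 to 1.54, and LUM and BGN were below the filter as well.

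The SDC4 to SDC1 ratio per kilobase was 9.93 and 8.99 after siEZH2 against 5.41 and 6.70 in siNC spheres. After siSCIRT 1 it was 5.25, 5.05 and 5.44 and after siSCIRT 2 it was 5.58, 5.23 and 5.46, against 6.31, 7.16 and 6.21 in siNC spheres. The ratio was thus higher than in every control after siEZH2 and lower than in every control after siSCIRT. The difference between both knockdown responses was tested in 1 limma fit over the 13 siRNA libraries, each response against its own siNC, which was chosen after the data were seen. Of 7 members tested, SDC1 had a siEZH2 minus siSCIRT difference of -0.47 ± 0.12 (adjusted p = 0.00812) and SDC4 of 0.47 ± 0.14 (adjusted p = 0.0215), against a background of 15% of 15369 genes (8.51% higher, 6.51% lower). The SDC4 difference was lost without siNC replicate 1 of either table or siEZH2 replicate 1, down to 0.27 (adjusted p = 0.213), and without the variance trend (adjusted p = 0.0819), and that of SDC1 without siNC replicate 2 of the siEZH2 table (adjusted p = 0.0535). EZH2 itself fell in both experiments, for the siSCIRT mean by 0.51 ± 0.07 (limma, adjusted p = 0.000143). The tables were made separately, so a difference between the experiments cannot be told apart from one between the siRNAs.

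**Figure D3:**
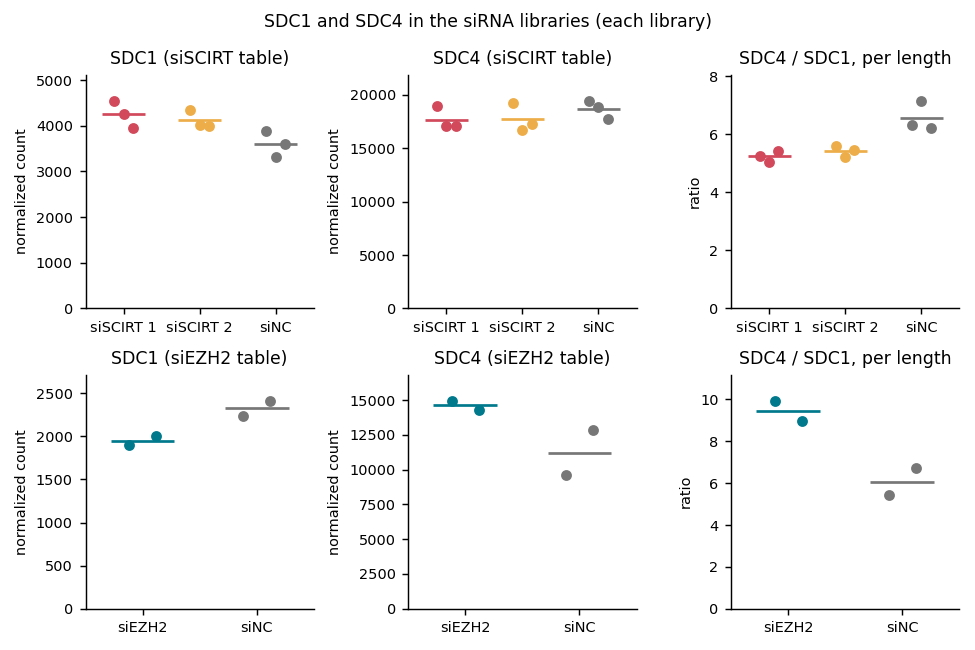
SDC1 and SDC4 normalized counts and the SDC4 to SDC1 ratio per length (vertical axes, from 0) in the siSCIRT libraries (upper row) and the siEZH2 libraries (lower row). Points are libraries and lines are group means (n = 3 a group above, 2 below). The ratio is 9.93 and 8.99 after siEZH2, above its siNC values of 5.41 and 6.70, and below siNC after both siSCIRT.

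Around the members, 10 lists of proteoglycan biology were counted, and the genes named below were called (limma, adjusted p under 0.05) and carry their log2 fold change. Over all genes tested at 16 h, 27.4% were higher and 26.5% lower, and at 5 d 26.3% were higher and 28.9% lower. In 16 h spheres 9 of 15 tested other cores were higher and 3 lower, among them CD74 (log2 fold change 2.99), NRP1 (1.14) and COL18A1 (2.19), with a list median of 0.48 against -0.01 over all genes. Of the enzymes that build chondroitin and dermatan sulfate chains, 6 of 15 were higher and 1 lower, with CHST15 at 1.87, CHSY1 at 0.99 and DSEL at 1.74, and 8 were not called. For heparan sulfate 4 of 10 were higher and 3 lower, with the polymerase EXT1 at -0.70 and the sulfotransferases HS3ST1 at -3.35 and HS3ST3B1 at 1.70. Precursor supply had 5 of 12 higher and 2 lower, with the sugar transporter SLC35D1 at 2.84, UGP2 at 1.12 and GFPT2 at 1.92, and of 5 linkage enzymes B4GALT7 alone was called, at 0.41. Of the hyaluronan genes 3 of 9 were higher and 2 lower, with the synthase HAS2 at 3.88, CEMIP at -1.08 and HYAL2 at 0.47.

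Degradation and sulfatases had 3 of 13 higher and 8 lower at 16 h, with IDS at -0.76 and heparanase, HPSE, at -2.94, and at 5 d 8 of 13 were lower and none higher (limma), with a list median of -0.76 against -0.02 over all genes. Proteases that cut cores had 4 of 7 higher and 2 lower at 16 h, with MMP14 at 1.81, ADAMTS9 at 3.65 and ADAMTS1 at -1.35. Syndecan adaptors and partners had 7 of 13 higher and 2 lower, with ITGB4 at 1.70, GIPC1 at -0.90 and ITGAV at 1.27. All 16 tested ligands and receptors were called at 16 h, 10 higher and 6 lower, with fibronectin, FN1, at 5.19, VEGFA at 1.77 and TLR2, a receptor of decorin and biglycan, at 4.34.

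At 5 d against adherent cells the other lists were counted in the same way, beside 26.3% of all genes higher and 28.9% lower. Other cores had 5 of 15 higher and 3 lower, linkage enzymes 1 of 5 higher and 1 lower, and heparan sulfate enzymes 2 of 10 higher and 3 lower. Chondroitin and dermatan sulfate enzymes had 5 of 15 higher and 5 lower with a median of -0.23, precursor supply 5 of 12 higher and 5 lower, and hyaluronan genes 2 of 9 higher and 4 lower. Proteases had 3 of 7 higher and 1 lower, syndecan adaptors 8 of 13 higher and 4 lower, and ligands and receptors 10 of 16 higher and 6 lower.

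After siSCIRT, for the mean of both siRNAs, 5 of 15 chondroitin and dermatan sulfate enzymes were higher and none lower, with CSGALNACT1 at 0.75, CHPF at 1.12 and CHST15 at 0.35, and 4 of 15 heparan sulfate enzymes were higher and none lower, with HS6ST1 at 0.47, GLCE at 0.24 and HS2ST1 at 0.28. Other cores had 4 of 23 higher and 1 lower, with SPOCK1 at -0.62, COL18A1 at 0.32 and CSPG4 at 0.32, and hyaluronan genes had 4 of 10 higher and 2 lower, with the receptor HMMR at -1.22, TMEM2 at -0.51 and HAS3 at 0.54. The other 6 lists had from 1 to 5 calls each. After siEZH2, 4 of 21 other cores were lower and none higher, with FMOD at -0.51, HSPG2 at -0.37 and NRP1 at -0.39, and both GFPT1 (-0.98) and GFPT2 (-0.65), which make hexosamine precursors, were lower among 12 precursor genes. Of 15 heparan sulfate enzymes 3 were higher and 1 lower, with HS2ST1 at -0.55, HS3ST1 at 0.49 and EXT2 at 0.42, and the protease MMP3, which cleaves decorin, was at 1.81. None of 17 tested ligands and receptors was called after siEZH2 (limma). Over all genes tested, 6.82% were higher and 7.58% lower for the siSCIRT mean, and 3.9% were higher and 2.94% lower after siEZH2, and the counts of each list are a description beside these shares.

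**Figure D4:**
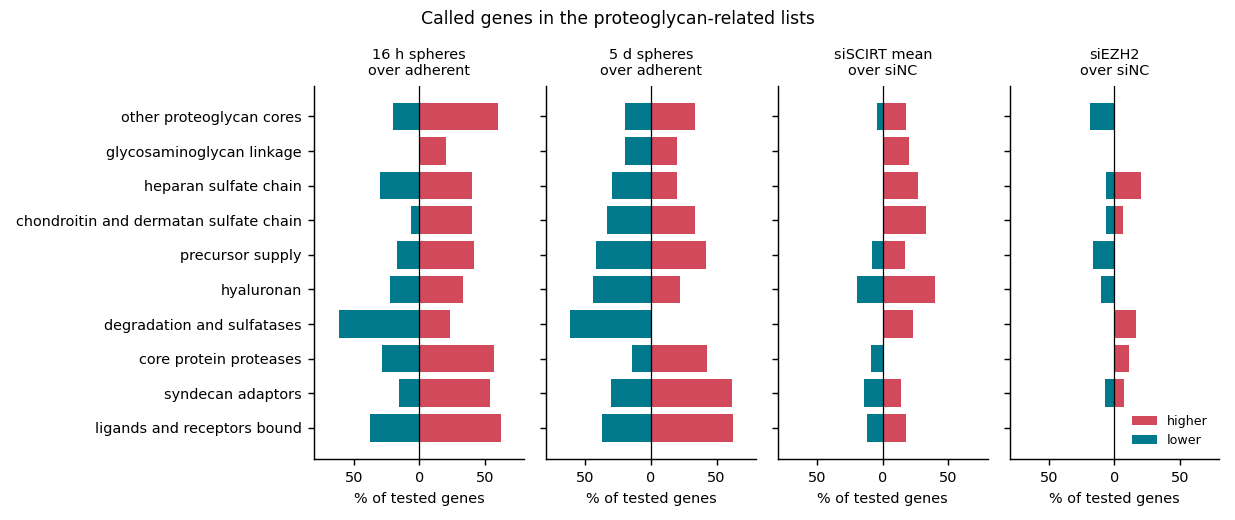
Share of tested genes called higher (right, red) and lower (left, blue) in each of 10 proteoglycan-related lists (horizontal axis, percent of the tested genes of a list), for 16 h and 5 d spheres over adherent cells, the siSCIRT mean over siNC and siEZH2 over siNC. Degradation genes are lower in 8 of 13 cases at 5 d with none higher.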

How the data were processed

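RNA of MDA-MB-231 was extracted as total RNA with TRI Reagent and prepared with TruSeq RNA v2, per the labels' protocols, a kit that does not mark strand. CASAVA 1.4, TopHat2, Partek and hg19 appear in the submitters' processing notes with no role given; the counting tool is not given in the sources used here. As deposited, the values for culture and siSCIRT are on a log2 scale, read from their pattern and the labels as DESeq2's variance-stabilizing transform; those for siEZH2, also deposited by the authors, are a linear signal, namely reads over each library's size factor. The transform was inverted, because the test assumed linear values, and the steps between values gave whole reads for 100% of values in each of 19 libraries (tolerance 0.05 reads). Each table was normalized and tested on its own.

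Groups came from the titles; in the siSCIRT table only siSCIRT 2 columns carry a number, and the others were taken as siSCIRT 1. limma 3.58.1 (R 4.3.3; eBayes with trend and robust) was fitted to log2 of the normalized count plus 1 over all genes with a mean of at least 10, with Benjamini-Hochberg adjustment over them, two-sided. Fold changes on this scale understate changes of low genes. Intervals are 95%; ratios of low counts use exact counting intervals. Since no label says if replicates are separate cultures, p-values measure only the spread between libraries. Simulated data with known changes were used to test the fit. Other settings tried were edgeR 4.0.16 (TMM, quasi-likelihood) and DESeq2 1.42.0 on recovered reads, quantile normalization, a replicate block, eBayes with no trend, a filter at a mean of 50 or none, a pseudocount of 8, a fit of the compared groups alone and the omission of each library. All 10 members are named in every comparison, then of each list up to 3 called genes with the smallest adjusted p at 16 h, for the siSCIRT mean and for siEZH2 (1 such gene is not reported here), and the nearest gene in course among genes with a mean of at least 100. Members and lists were chosen with earlier results of these data known. On recovered reads edgeR called 1088 genes for siEZH2, where limma called 1082. Of the members, VCAN alone overlaps a gene on the opposite strand.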

Additional observations from a re-analysis of the deposited data

Results flagged for a closer look

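Between 5 d and 16 h spheres the response against adherent cells, which both share, differed for 6 members in the same limma fit, as the 5 d minus 16 h difference on the log2 scale: DCN by -6.95, LUM by -2.33, SDC1 by -0.55, SDC3 by 1.00, SDC4 by -0.93 and SRGN by -0.75. DCN passed the filter only through its 16 h libraries, so its value is a description and not a finding. SDC3 lay below its adherent level at 16 h and above it at 5 d. Between the knockdowns, the siEZH2 response minus the siSCIRT response was -0.47 for SDC1 and 0.47 for SDC4 in a fit chosen after the data were seen.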

How the results depend on the processing

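Every call of a member in the 3 culture comparisons kept its direction and side of the threshold in each alternative in which the member was tested. These were 105, 118 and 89 pairs of a member and an alternative, with 15 alternatives for most members. Of these pairs, 15, 14 and 15 were of DCN. They are a description, since DCN passed the filter only through its 16 h libraries. DCN at 5 d against adherent cells and LUM had 14, since a member below the filter of an alternative was not tested in it. The fitted size for DCN ran from 6.93 to 11.54 (16 h against adherent) and from 0.87 to 4.47 (5 d against adherent), and LUM is fitted on few reads. The cause of the changes below was not tested. Without trend, all-gene calls were 964 for siSCIRT 1, 824 for siSCIRT 2, 1531 for their mean and 0 for siEZH2, and member calls were 0 for the siSCIRT mean and for siEZH2 and 1 for the siEZH2 minus siSCIRT difference. Same-number correlations ran from -0.02 to 0.00 in culture and were -0.01 for siEZH2, so replicate numbers did not pair the libraries there. For siSCIRT they ran from -0.0043 to 0.58. Not every pair passed 0.1, and not every library correlated best with one of its own number. The replicate 1 libraries of siSCIRT 1, siSCIRT 2 and their siNC did deviate together. They correlated at 0.54 to 0.58 with each other and at -0.41 to -0.09 with libraries of other numbers. The main fit did not include this replicate effect. With the replicate block, all-gene calls were 3144, 3110 and 4030 for siSCIRT 1, siSCIRT 2 and their mean, 7 between both siRNAs, 532 for siEZH2 and 3575 for the difference, and member calls were 3, 2, 2 and 0 for siSCIRT 1, siSCIRT 2, the mean and siEZH2. Called with the block were SDC1 (adjusted p = 0.00393), GPC1 (0.049) and SRGN (0.0361) for siSCIRT 1, SDC1 (0.0172) and SRGN (0.0137) for siSCIRT 2, and SDC1 and SRGN (0.00678 for SRGN) for the mean, while SDC4 after siEZH2 was not (0.116). DESeq2 gave 675 genes and 0 members for siEZH2, 6 genes between both siRNAs and 1 member for siSCIRT 1; no filter gave 2 genes and the compared groups alone 1 between both siRNAs. Quantile normalization gave 1 member for siSCIRT 1 and turned 3 uncalled values, SDC2 at 5 d minus 16 h (0.019), SDC4 between both siRNAs (0.0095) and SRGN in the difference (-0.0059).

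Leaving out each library gave all-gene calls of 887 to 1829 for siSCIRT 1, 769 to 1815 for siSCIRT 2 and 1242 to 2582 for their mean, each lowest without siNC replicate 3, 0 to 1 between both, 342 to 1040 for siEZH2 and 1489 to 2556 for the difference, both lowest without siNC replicate 1 of siEZH2. Counts also moved by over 1.5 times without siNC replicate 1 for siSCIRT 1 (1069), siSCIRT 2 (922) and the mean (1461), siSCIRT 1 replicate 2 (945) or 3 (976), siSCIRT 2 replicate 3 (911), siNC replicate 2 for siEZH2 (508) and siEZH2 replicate 1 for the difference (1494). Member calls were 0 to 1 for siSCIRT 1, the mean and siEZH2 and 1 to 2 for the difference. Uncalled values that changed sign were, at their extremes, LUM at 16 h (-1.13 to 0.065) and SDC2 at 5 d minus 16 h (-0.15 to 0.082). For siSCIRT 2 they were DCN (-0.27 to 0.59), LUM (-0.0013 to 0.25), SDC2 (-0.094 to 0.047) and GPC1 (-0.14 to 0.0033). For the siSCIRT mean they were DCN (-0.058 to 0.80) and SDC2 (-0.00086 to 0.070). Between both siRNAs they were VCAN (-0.61 to 0.036), SDC1 (-0.0068 to 0.097), SDC3 (-0.056 to 0.0013), SDC4 (-0.056 to 0.055) and SRGN (-0.049 to 0.094). For siEZH2 they were VCAN (-0.036 to 0.99), GPC1 (-0.088 to 0.22) and SRGN (-0.21 to 0.030), and for the difference SRGN (-0.023 to 0.21).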
